A study of Cricetiscus sungorus with 216 samples.

Results

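The paraventricular nucleus (PVN) of Djungarian hamsters late in short photoperiod (SP) was compared with the PVN in the middle of SP. The late group joined the hamsters killed after 28 and 32 weeks of SP, and the mid group joined those killed after 12, 16 and 20 weeks. The groups were set by the labelled week alone. After a library under 10000 counts had been left out, they held 12 late and 17 mid libraries, which are 29 of the 54 PVN libraries in a series of 54 libraries in each of 4 tissues. All hamsters were adult males for which no genetic change is labelled, taken from a colony kept in long photoperiod (LP, 16 h light) at an age of 3 to 8 months, and both groups had been moved to SP (8 h light). Each library was the RNA of bilateral punches from 1 hamster killed at 1 time, so late and mid values came from different animals, and a punch also takes up tissue around the nucleus.

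Djungarian hamsters in SP lose body mass, grow a white coat and regress their gonads, and after months in SP they return to the summer state although the photoperiod has not changed. The mid weeks lie in the winter state and the late weeks in this recovery. The PVN gathers neuroendocrine neurons that drive the pituitary gland: those with thyrotropin-releasing hormone (Trh) act on the thyroid axis, those with corticotropin-releasing hormone on the adrenal axis, and somatostatin (Sst) neurons restrain growth hormone. The comparison addresses whether the PVN transcriptome of recovery differs from that of the maintained winter state.

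Library depth was alike in both groups. Summed counts ran from 54496 to 688828 with a median of 179203 in the late libraries, and from 22217 to 777051 with a median of 171459 in the mid libraries. On the log2 scale the totals were 17.4 ± 1.07 (SD, n = 12) and 17.4 ± 1.48 (n = 17), and their difference of -0.03 had p = 0.960 in a 2-sided permutation test. Late libraries held 9934 ± 2431 genes and mid libraries 9817 ± 3179. A pair of mid libraries stood apart. The library of replicate 3 at 16 weeks had 22217 counts, 2666 genes and 54.99% of its counts in 1 gene. There 1 count amounted to 35.2 CPM (counts per 1000000), so its values of 0 are coarse. The library of replicate 4 at 20 weeks had 6 of the 16 PVN peptides of the table, with 11713 CPM of Tcf7l2, the most of any late or mid library.

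**Figure D1:**
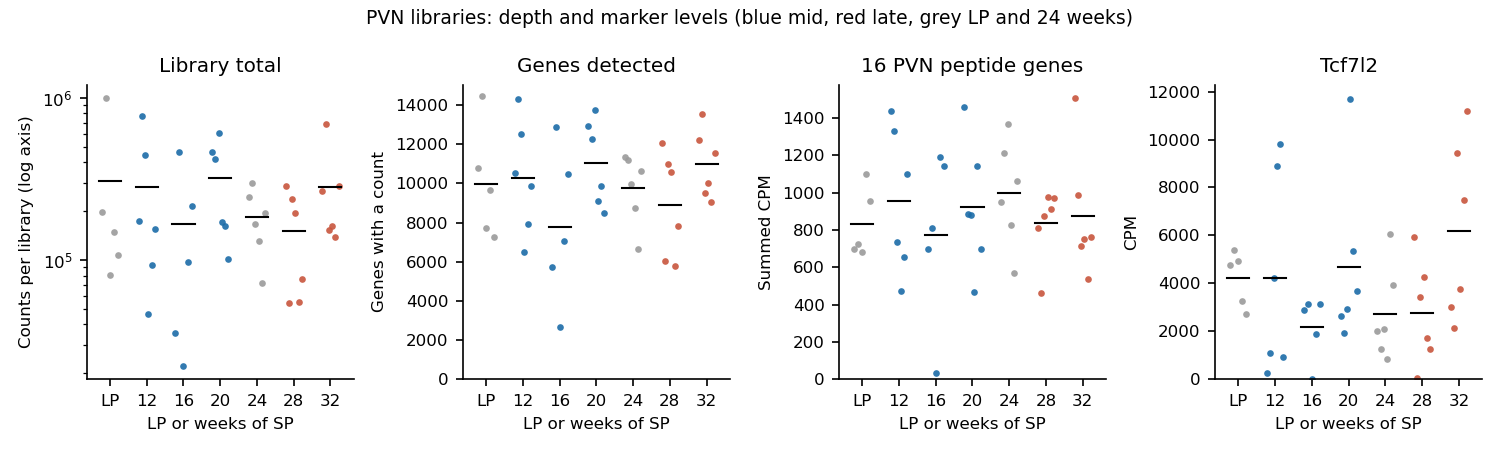
Counts per library (log axis), genes with a count, summed CPM of the 16 PVN peptides and CPM of Tcf7l2 in LP and by week of SP, 1 point per PVN library of at least 10000 counts, in blue for mid, red for late and grey for LP and 24 weeks, with lines at group means. The shallowest library, replicate 3 at 16 weeks, has 22217 counts and 2666 genes, and Tcf7l2 spreads from 53.3 to 11197 CPM in late and from 0 to 11713 CPM in mid libraries.

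The label of the tissue was checked against its markers. Avp, Oxt, Crh and the factor Pou3f2 were not analysed here. Trh was read in 51 of the 52 PVN libraries with at least 10000 counts, and the transcription factors that specify PVN neurons were scarce: Otp had 129 counts in 35 libraries and Sim1 had 21 counts in 14. The 16 PVN peptides of the table together had 462 to 1506 CPM in late libraries (median 843) and 35.2 to 1460 CPM in mid libraries (median 881). Genes of neighbouring nuclei were present as well. Tcf7l2, a factor of thalamic neurons, ranged from 53.3 to 11197 CPM (median 3596) in late and from 0 to 11713 CPM (median 2911) in mid libraries, and Calb2 from 177.7 to 1692 CPM (median 837) and from 70.4 to 1351 CPM (median 812). Levels of both genes varied widely within each group, and the part of this in the differences below was not tested. In bulk tissue, fewer cells of a type and less RNA per cell cannot be told apart.

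No gene differed between late and mid SP at the threshold used. Of 8709 genes tested with edgeR's quasi-likelihood F-test, 0 (0%) had an adjusted p below 0.1, and the smallest adjusted p was 1.00. An unadjusted p below 0.05 was found for 316 genes (3.63%), of which 173 (1.99%) were higher and 143 (1.64%) lower in late SP. With DESeq2 the count of calls was also 0, with 284 genes at an unadjusted p below 0.05. There was no gene whose 12 late libraries all lay outside the range of the 17 mid libraries. The mid library of replicate 3 at 16 weeks held counts of only 2666 genes. For most genes tested the mid range therefore began at 0, and late libraries could not all lie below it. The median log2 difference (late minus mid) over all genes was 0.03. Both late weeks had a mean above all 3 mid weeks for 913 genes (10.5%) and below them for 601 (6.9%). These shares describe the order of the week means and were not tested against chance.

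The size of difference that these libraries leave room for depended on how often a gene was read. The 95% interval of the log2 difference lay inside ±1, which is a doubling or a halving, for 4492 genes (51.6%). This share was 518 of 3090 genes with a mean under 5 counts per library, where the median half-width of the interval was 0.97. It was 2121 of 3536 genes with 5 to 20 counts (half-width 0.69), 1461 of 1663 genes with 20 to 100 counts (0.45) and 392 of 420 genes with over 100 counts (0.39). Among the 420 most read genes, 8 had an unadjusted p below 0.05, 6 higher and 2 lower in late SP.

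**Figure D2:**
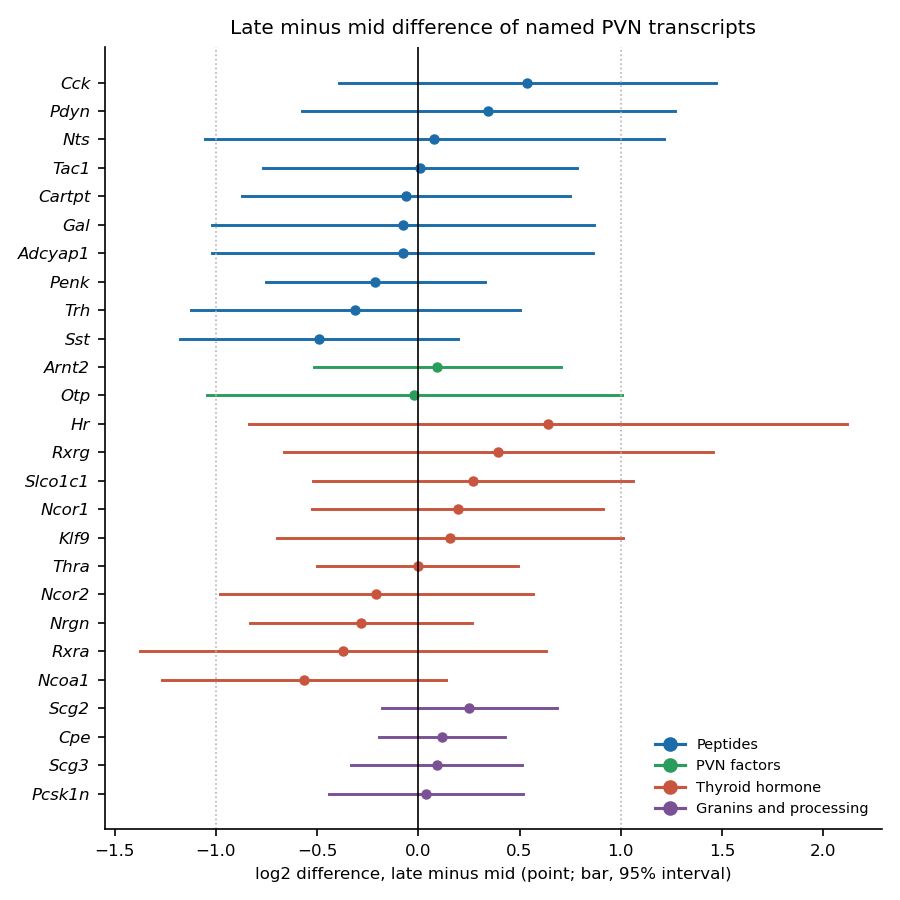
Log2 differences (late minus mid, points) with 95% intervals (bars) for the tested PVN peptides other than Npvf, PVN factors, thyroid hormone genes and 4 granin and processing genes, with dotted lines at -1 and 1. The interval of each gene drawn spans 0, and the estimates run from -0.57 for Ncoa1 to 0.64 for Hr.

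Among the peptides that PVN neurons release, Trh, the start of the thyroid axis, had 6.98 to 441 CPM (median 143) in late and 0 to 432 CPM (median 187.2) in mid libraries. The ranges almost coincided, and 2 of the 12 late libraries exceeded the mid median. The log2 difference was -0.31 with a 95% interval of -1.13 to 0.50, so that it held both no difference and a log2 difference past -1. Week means were 174.6 ± 105 CPM at 12 weeks (SD, n = 6), 143 ± 112.99 at 16 weeks (n = 5) and 202 ± 146 at 20 weeks (n = 6), against 145 ± 70.4 at 28 weeks and 142 ± 160 CPM at 32 weeks (n = 6 each). LP libraries had 117 ± 73.5 CPM (n = 5).

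Sst, which codes for somatostatin, had the lowest point estimate of the PVN peptides. It had 19.8 to 269 CPM (median 73.0) in late and 0 to 328 CPM (median 131) in mid libraries, and 3 of 12 late libraries lay above the mid median. The means were 96.7 ± 77.1 CPM (SD, n = 12) and 135 ± 92.9 CPM (n = 17). The log2 difference of -0.49 (standard error 0.34, 95% interval -1.18 to 0.20) had an unadjusted p of 0.154 in edgeR's test and an adjusted p of 1.00. The weeks did not run in 1 direction: the means were 161.6, 103 and 135 CPM at 12, 16 and 20 weeks, 111 CPM at 24 weeks, and 116 and 77.8 CPM at 28 and 32 weeks, with 86.2 CPM in LP. The libraries named above are among the lowest for Sst, with 0 counts at 16 weeks (replicate 3) and 7.39 CPM at 20 weeks (replicate 4), and the difference was -0.55 without the first and -0.56 without the second. The sign was negative under each of the 25 alternatives, between -0.77 and -0.22.

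Penk, the precursor of enkephalins, had 48.9 to 230 CPM (median 92.1) in late and 0 to 240 CPM (median 121) in mid libraries. Both late weeks, with means of 107 CPM each, lay below all 3 mid weeks, whose means ran from 118 to 133 CPM. These gaps were small beside the SD of 27.2 to 88.6 CPM within the weeks, and the log2 difference was -0.21 with an interval of -0.75 to 0.33. Cartpt, an anorexigenic peptide, had 35.5 to 389 CPM (median 151.7) in late and 0 to 533 CPM (median 177) in mid libraries, with a log2 difference of -0.06 (interval -0.87 to 0.75), which was -0.12 without replicate 3 at 16 weeks and -0.13 without replicate 4 at 20 weeks. The highest week mean of Cartpt fell outside both groups, at 24 weeks (418 ± 296 CPM, SD, n = 6).

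Cck, a peptide of parvocellular neurons and gut, was the peptide with the highest point estimate among those read in most libraries. It had 11.7 to 384 CPM (median 112) in late and 0 to 414 CPM (median 53.5) in mid libraries. The log2 difference was 0.54 (interval -0.39 to 1.47), and the ranges overlapped over nearly their whole length. It rested on 1 late week: week means were 104, 72.9 and 113.4 CPM at 12, 16 and 20 weeks, 84.3 CPM at 28 weeks and 186 CPM at 32 weeks. Without 28 weeks the difference was 1.03 and without 32 weeks 0.03, and with the library of replicate 4 at 20 weeks dropped it was 0.91 (unadjusted p = 0.0423 in edgeR's test).

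The other PVN peptides gave differences near 0 with wide intervals. Gal had a log2 difference of -0.07 (interval -1.02 to 0.87), Tac1, the precursor of substance P, 0.01 (-0.77 to 0.78), and Pdyn, the precursor of dynorphins, 0.35 (-0.57 to 1.27). Nts gave 0.08 and Adcyap1, which codes for PACAP, -0.08. Npvf, which codes for RFamide peptides of dorsomedial neurons, was read in 3 late libraries (9 counts) and 3 mid libraries (26 counts), too few for a fold. Of the 11 peptides tested, 5 had positive and 6 negative differences, with a median of -0.06 (-0.16 to 0.12 under 25 alternatives). This split and median count Npvf as positive, although its fold is not usable. Tac1 was at -0.04 without replicate 3 at 16 weeks and at -0.05 without replicate 4 at 20 weeks. The remaining 5 peptides of the table (Vip, Vgf, Ucn3, Grp and Nppc) were below the minimum of 2 counts per library.

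**Figure D3:**
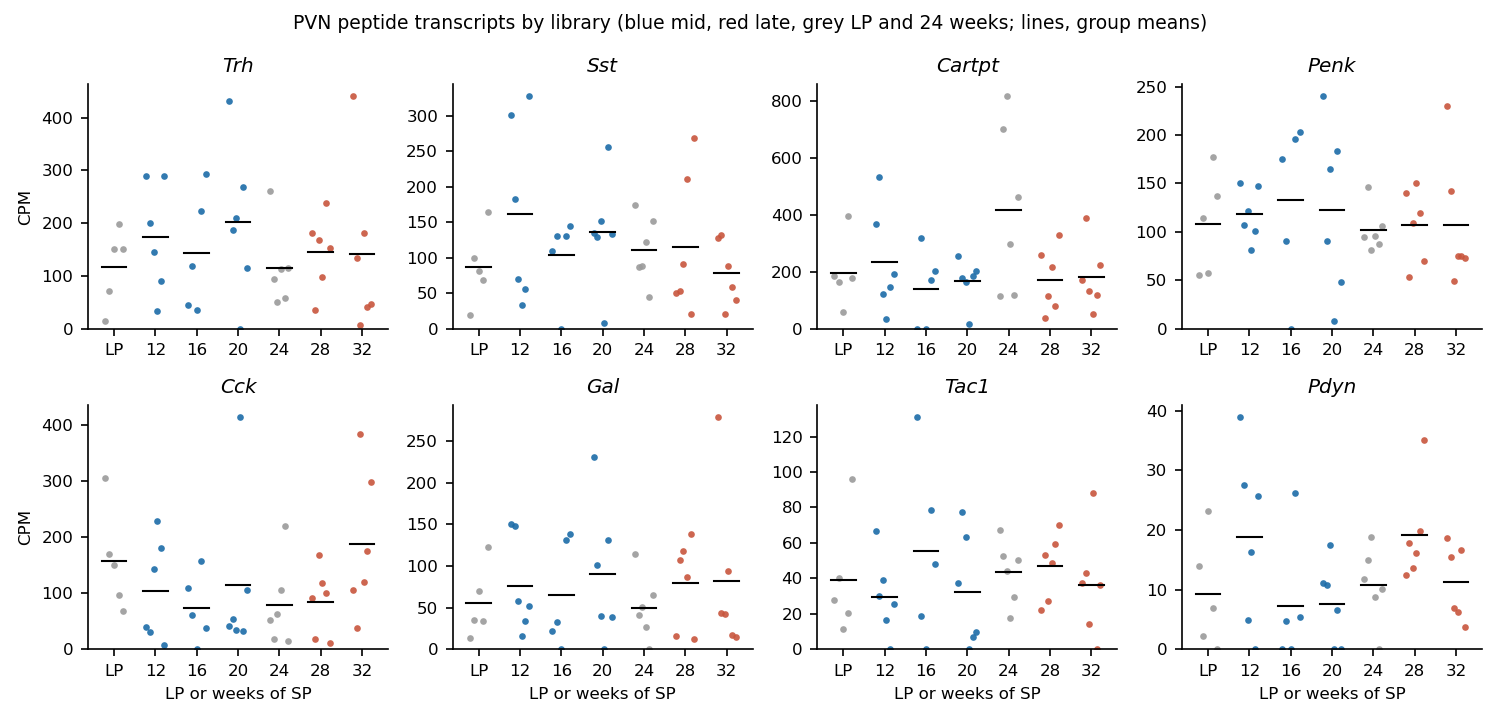
CPM of 8 PVN peptides in LP and by week of SP, 1 point per library, in blue for mid, red for late and grey for LP and 24 weeks, with lines at group means. Late and mid libraries overlap for each peptide, and the mean of Cartpt at 24 weeks (418 CPM) stands above its other means.

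The transcription factors of PVN neurons that could be tested, Otp and Arnt2, had log2 differences of -0.02 (interval -1.04 to 1.00) and 0.09 (-0.52 to 0.70). Genes of thyroid hormone handling and response were looked at because Trh neurons are under thyroid hormone feedback. Of the 10 tested, 5 had positive and 5 negative differences, and 0 had an unadjusted p below 0.05. Ncoa1, a coactivator of nuclear receptors, had 31.1 to 184 CPM (median 104) in late and 0 to 286 CPM (median 156) in mid libraries. Only 1 of 12 late libraries lay above the mid median, but the log2 difference of -0.57 had an interval of -1.27 to 0.13. Thra, the main thyroid hormone receptor of brain, had 100 ± 34.2 CPM (SD, n = 12) in late and 105 ± 56.8 CPM (n = 17) in mid libraries, a log2 difference of -0.00 with an interval of -0.50 to 0.49. Klf9, a gene that thyroid hormone induces, had 0.16 (interval -0.70 to 1.01), and Hr, another such gene, 0.64 (-0.84 to 2.12) from counts in 6 late and 7 mid libraries. Both moved with the library of replicate 4 at 20 weeks, and with that library dropped Klf9 was at 0.43 and Hr at 1.08. The transcript of type-2 deiodinase, Dio2, which makes the active hormone, had 4 counts in all libraries together and was not tested.

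The genes with the smallest unadjusted p among those higher in late SP did not pass the adjustment, and their values are given as a description. Kdelr2, a receptor that returns proteins to the endoplasmic reticulum, had 17.2 to 58.5 CPM (median 29.8) in late and 0 to 26.9 CPM (median 13.1) in mid libraries. All 12 late libraries lay above the mid median, and the ranges shared the values from 17.2 to 26.9 CPM. The log2 difference was 1.01 (interval 0.40 to 1.62, edgeR adjusted p = 1.00). The mean was 33.4 CPM at 24 weeks and 15.7 CPM in LP.

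Decr1, a mitochondrial enzyme of unsaturated fatty acid oxidation, had 17.8 to 46.8 CPM (median 32.5) in late and 0 to 44.1 CPM (median 13.1) in mid libraries. The mid weeks were not alike for Decr1: its mean at 20 weeks was 31.7 CPM, next to 32.7 and 34.6 CPM at 28 and 32 weeks, whereas it was 8.47 and 8.95 CPM at 12 and 16 weeks. Its log2 difference of 0.97 had an interval of 0.36 to 1.58.

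Amph, an endocytic protein of presynaptic terminals, had 35.5 to 264 CPM (median 140) in late and 0 to 151 CPM (median 99.6) in mid libraries, a log2 difference of 0.91 (interval 0.33 to 1.49). Nfu1, which delivers iron-sulfur clusters in mitochondria, had 75.5 to 355 CPM (median 143) in late and 0 to 171.9 CPM (median 88.5) in mid libraries, a log2 difference of 0.69 (0.24 to 1.14). For both genes 16 weeks had the lowest mean (42.01 and 59.2 CPM), and without that week the differences were 0.60 and 0.46. Polr1g, a subunit of RNA polymerase I, had a median of 14.3 CPM in late and 4.41 CPM in mid libraries, and 12 of 12 late libraries lay above that mid median. Its counts were low, and without 32 weeks it fell under the minimum mean count and was not tested.

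Other genes of this kind were read in few libraries. Rffl, a ubiquitin ligase, had the smallest p of those higher, with counts in 7 late and 5 mid libraries. Its late libraries reached 198 CPM and its mid libraries 15.4 CPM, but 5 of the 12 late libraries held none. Katnip had 89 counts in 8 late and 32 counts in 4 mid libraries.

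**Figure D4:**
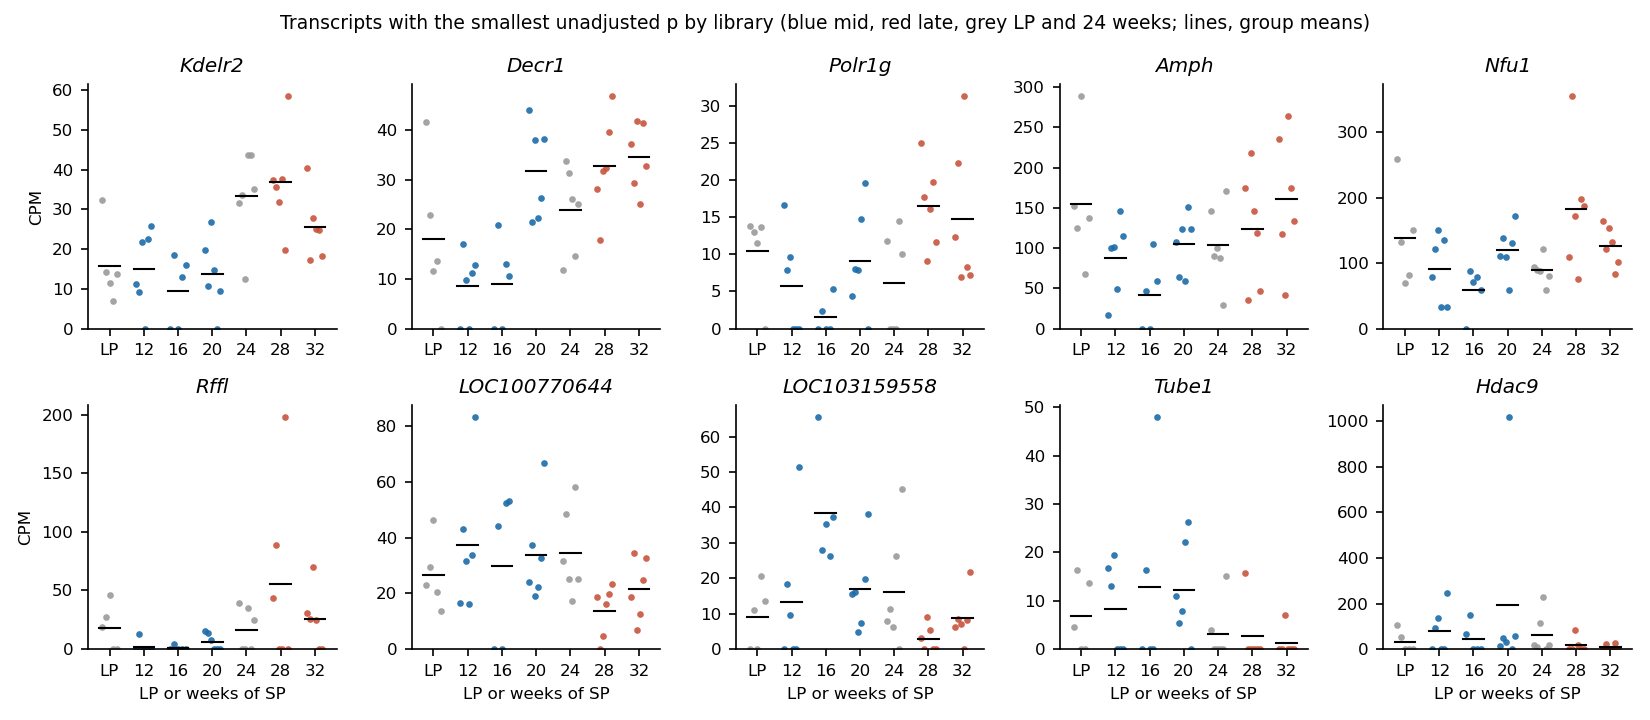
CPM in LP and by week of SP of 10 genes among those with the smallest unadjusted p, 6 higher and 4 lower in late SP, 1 point per library, in blue for mid, red for late and grey for LP and 24 weeks, with lines at group means. Late and mid libraries overlap for each gene, as for Kdelr2 with 17.2 to 58.5 CPM in late and 0 to 26.9 CPM in mid libraries.

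Most genes with the smallest p among those lower in late SP were read in few late libraries. Ccdc126, with the smallest p of all, had 16 counts in 5 late and 60 counts in 12 mid libraries. Its small p rested on 28 weeks: without that week its log2 difference was -0.59 (unadjusted p = 0.319 in edgeR's test). Tube1, the epsilon tubulin of centrioles, had 6 counts in 2 late and 56 counts in 10 mid libraries. Ebf3, a transcription factor of neurons, had 2 counts in 1 late library and 103 counts in 7 mid libraries. Tnnt3, a troponin of fast skeletal muscle, had 3 counts in 1 late library and 114 counts in 5 mid libraries. These counts were summed over 50 isoforms, which often hold the same value, so they can stand for fewer reads. The 13 skeletal muscle genes of the table together had 0 to 199 CPM (median 57.9) in late and 0 to 299 CPM (median 61.5) in mid libraries. For each of Ccdc126, Tube1, Ebf3 and Tnnt3 the lowest library of both groups was at 0, so the groups overlapped.

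Hdac9, a histone deacetylase, had counts in 4 late and 10 mid libraries, with up to 81.7 CPM in late and up to 1020 CPM in mid libraries. That highest value came from the library of replicate 4 at 20 weeks, which also had the most Tcf7l2, and the log2 difference of -2.74 (interval -4.63 to -0.84) was -1.86 without it. LOC100770644, read in 11 late and 15 mid libraries, had 0 to 34.4 CPM (median 18.7) in late and 0 to 83.5 CPM (median 32.9) in mid libraries, a log2 difference of -0.99 (-1.66 to -0.31). Wdr43, a factor of ribosome assembly, was low at 28 weeks alone, with 1.94 CPM there, 22.1 CPM at 32 weeks and 19.2 to 24.5 CPM in the mid weeks. Its log2 difference of -1.30 was 0.05 without 28 weeks.

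Gene groups were described by their counts and medians beside the median of 0.03 over all genes. Of all 8709 genes tested, 4713 had a positive difference, and of the 420 with over 100 counts per library 177 had one. An unadjusted p below 0.05 in edgeR's test was found for 3.63% of all genes. Genes of a group are read in the same libraries and are not independent, so each split describes these libraries. Of 32 pan-neuronal genes, 28 had positive and 4 negative log2 differences, with a median of 0.14, and 1 had an unadjusted p below 0.05: Syp, a membrane protein of synaptic vesicles (log2 difference 0.30, interval 0.03 to 0.57). Of 32 synaptic vesicle genes, 26 were positive and 6 negative (median 0.19), and 2 had a p below 0.05, Syp and Atp6ap2 (0.36), a partner of the vesicular proton pump. Of 13 granins and prohormone processing genes, which pack and cut peptide precursors, 12 were positive and 1 negative (median 0.25), with 0 genes at a p below 0.05. Scg2, secretogranin II of dense-core vesicles, had 124 to 705 CPM (median 396) in late and 0 to 518 CPM (median 328) in mid libraries, a log2 difference of 0.25 (-0.18 to 0.68), and Cpe, the carboxypeptidase that trims peptides, had 0.12 (-0.19 to 0.43). None of these genes had an adjusted p below 0.1. Without 32 weeks the medians were -0.02 for pan-neuronal, 0.02 for synaptic vesicle and 0.09 for granin and processing genes. Peptides and factors of neighbouring nuclei had the highest median of these lists, 0.40 over 9 tested genes, 7 positive and 2 negative. The 20 such genes in the table together had 604 to 12826 CPM (median 5232) in late and 70.4 to 13110 CPM (median 3915) in mid libraries, and their part in the neuronal values was not tested.

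Of 18 oligodendrocyte and myelin genes, 14 had positive and 4 negative differences (median 0.30), and Septin4, a myelin septin, had a p below 0.05 (0.62, interval 0.03 to 1.22). The 23 such genes in the table together had 1283 to 6202 CPM (median 2783) in late and 528 to 4634 CPM (median 2348) in mid libraries, which overlapped widely. Of 29 astrocyte genes, 12 were positive and 17 negative (median -0.04), and of 14 microglia genes 11 were positive and 3 negative (median 0.16), with 0 genes of either kind at a p below 0.05. Of 11 endothelial and pericyte genes, 6 were positive and 5 negative (median 0.10). Cldn5, the tight junction protein of brain capillaries, had 0.62 (interval 0.08 to 1.17), and Pecam1, an adhesion protein of endothelium named after its values were seen, had -1.14 (-2.56 to 0.28) from 24 counts in 5 late and 80 counts in 9 mid libraries. Of 19 genes of GABA and glutamate transmission, 11 were positive and 8 negative (median 0.11). Slc32a1, which loads GABA into vesicles, had 0.69 (interval -0.02 to 1.41). Its unadjusted p was 0.0458 in edgeR's F-test, although the interval spans 0.

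Of 77 genes for cytosolic ribosomal proteins, 11 had positive and 66 negative log2 differences, with a median of -0.14. Single genes were not separated: Rpl36al (-0.42, interval -0.78 to -0.06) was the 1 gene with an unadjusted p below 0.05. Its late libraries had 93.2 to 432 CPM (median 301) and its mid libraries 176 to 518 CPM (median 406). The 79 ribosomal genes of the table together made up 47596 to 115763 CPM (median 96423) in late and 19850 to 153230 CPM (median 109064) in mid libraries, so that the late libraries lay within the range of the mid libraries. Genes read in the same libraries are not independent of each other, so 66 of 77 is a description of these libraries. The median of the list lay between -0.27 and -0.03 under 25 alternatives.

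Of 57 nuclear genes for oxidative phosphorylation, 28 were positive and 29 negative (median -0.00, and -0.11 to 0.09 under 25 alternatives). An unadjusted p below 0.05 in edgeR's test was found for 3 of the 57, beside 3.63% of all genes, so the list is not marked out by this count. These 3 were higher in late SP: Ndufv1 (0.42, interval 0.12 to 0.72) and Ndufb8 (0.36) of complex I, and Atp5f1a (0.26) of the ATP synthase. Ndufv1 had 116 to 284 CPM (median 203) in late and 35.2 to 227 CPM (median 153.1) in mid libraries. Of 40 ubiquitin and proteasome genes, 25 were positive and 15 negative. Psmb1 (0.32) and Psmd13 (0.48), both of the proteasome, had a p below 0.05, again beside 3.63% of all genes. The 37 heat shock and DnaJ chaperones (median -0.02), 32 genes of endoplasmic reticulum folding (-0.02), 25 of cholesterol synthesis (0.05) and 28 of tubulin, actin and neurofilaments (0.07) had 0 genes at a p below 0.05.

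Of 47 genes of motile cilia and intraflagellar transport, 18 were positive and 29 negative (median -0.15). The 2 with a p below 0.05 were Dynlrb2 (-1.12, interval -2.22 to -0.03) and Cfap300 (-0.83, interval -1.71 to 0.06). These genes are parts of ciliary dynein and its assembly and had 48 and 26 counts in late libraries. Ependymal and tanycyte markers, of cells that line the third ventricle and carry cilia, had a median of -0.14 over 11 genes, and those 23 in the table had 535 to 1190 CPM (median 828) in late and 211 to 1538 CPM (median 946) in mid libraries. The part of such cells in the ciliary values was not tested.

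**Figure D5:**
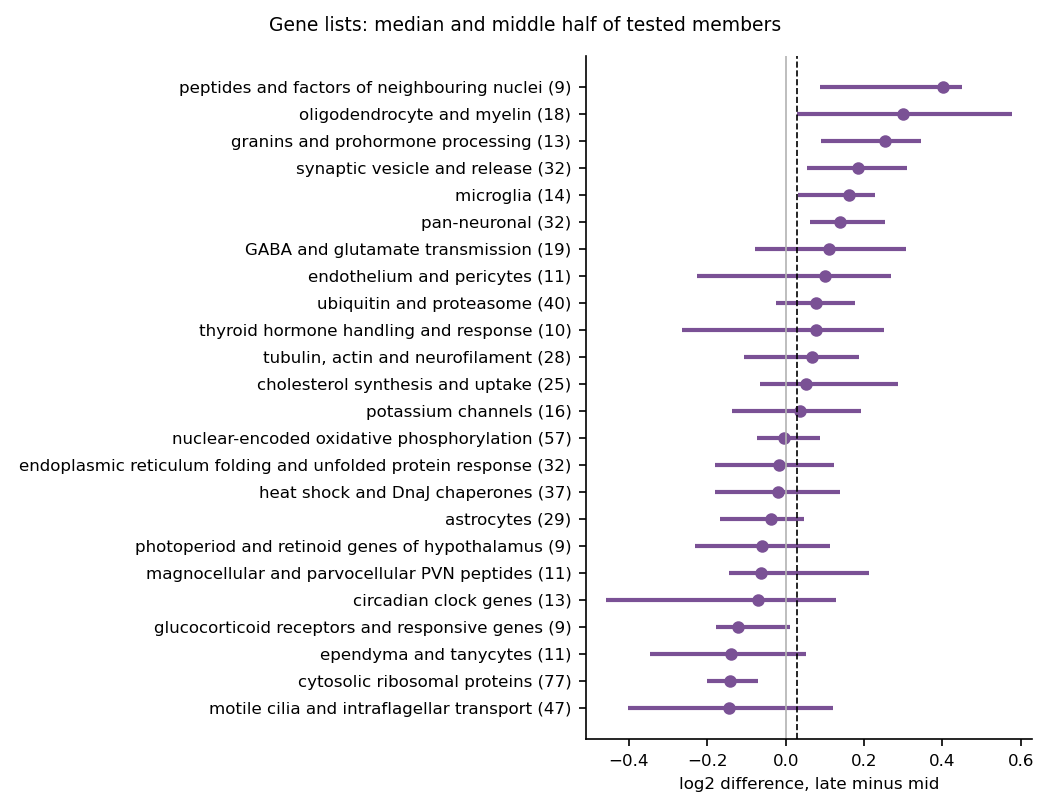
Median log2 difference (late minus mid, points) and middle 50% of the tested genes (bars) of each gene list with at least 9 tested genes, whose number is in brackets, with a grey line at 0 and a dashed line at the median of all genes (0.03). The list medians run from -0.15 for motile cilia to 0.40 for genes of neighbouring nuclei.

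Late and mid SP were also compared in the difference between the PVN and another region of the same hamster, tested with limma. Such differences take out what a hamster's regions share, but the PVN table shares no isoform identifier with those of the other tissues, and levels are not compared between them. For the PVN minus the dorsomedial hypothalamus (DMH), 0 of 6295 genes (0%) were called in 12 late and 17 mid hamsters, and 337 had an unadjusted p below 0.05. Of these, 327 were higher and 10 lower in late SP, beside a median over all genes of 0.38. This median depended on the settings. It was 0.65 with a prior count of 0.5 (340 higher and 6 lower) and 0.22 without replicate 1 (103 higher and 17 lower). With each hamster's differences centred on their median, 198 were higher and 115 lower. For the PVN minus the mediobasal hypothalamus (MBH), 0 of 7022 genes (0%) were called in 12 late and 16 mid hamsters, 212 had an unadjusted p below 0.05, and the median was 0.03.

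The gene with the smallest p in the difference from the MBH was Rnf103, a ubiquitin ligase of the endoplasmic reticulum. Its log2 difference was 0.74 in the PVN and -0.91 in the MBH. The PVN minus MBH value serves only to compare late with mid, as a hamster with 0 counts in both regions has 3.04. Rnf103 had a mean under 5 counts per library in at least 1 of the regions. The value ran from 0.75 to 5.43 (median 2.27) in late and from -1.14 to 3.19 (median 0.68) in mid hamsters. These ranges overlapped, and the gap between late and mid was 1.95 (interval 1.11 to 2.78) with a limma adjusted p of 0.162. Under the alternatives that could test it the gap was 1.45 to 2.81 and the limma adjusted p 0.0437 to 0.998. It was 0.961, 0.998 and 0.820 without replicates 1, 2 and 3, 0.0972 without replicate 6, and 0.0437 with each hamster centred on its median.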

How the data were processed

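RNA of PVN punches had been sequenced with a PCR-cDNA nanopore kit. The authors called bases with guppy, trimmed and filtered reads with Porechop and Filtlong, aligned them with Minimap2 (to the genome of the mouse, per their methods), estimated isoform abundance with Salmon and removed low transcripts with edgeR. The deposited values are estimated counts per isoform, not normalized, and the sources used here do not name the gene annotation behind the PVN identifiers. Isoforms of a gene often hold the same value, so summed counts are not molecules.

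The 35465 isoform rows were summed over 18960 gene symbols and rounded. Libraries under 10000 counts were left out, which removed 1 in LP (159 counts) and 1 at 16 weeks (5158 counts). Genes with a mean of at least 2 counts per library over the 52 others were kept (8709 genes, 97.8% of counts). Replicate numbers came from the labels, and each library is 1 hamster. All 9 groups were fitted in 1 model with TMM factors and edgeR 4.0.16 (quasi-likelihood F-test in the form of edgeR 3, R 4.3.3), the contrast was the mean of 28 and 32 weeks minus that of 12, 16 and 20 weeks, and a Benjamini-Hochberg adjusted p below 0.1 was called. Intervals are Wald intervals at 95% and cover the spread between hamsters. They are computed apart from the F-test, so an interval can span 0 where the unadjusted p is below 0.05. CPM are counts per 1000000 of TMM-scaled totals. Genes with a week at 0 in all libraries are given by counts. Tissue differences used log2 CPM with a prior count of 2 and limma 3.58.1. Depth was compared with 100000 permutations.

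Named genes were the 10 with the smallest p in each direction, PVN peptides and factors, thyroid hormone genes, and list members with an unadjusted p below 0.05. The members, lists and tests were chosen with earlier results of these data known. Scripts were tested on simulated data. Alternatives were DESeq2 1.42.0 and its size factors, the edgeR 4 form, other filters, the highest isoform, shallow libraries kept, other models, and weeks, replicates or libraries left out.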

Additional observations from a re-analysis of the deposited data

Results flagged for a closer look

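Within the week groups, 130 sets of 5 or 6 libraries were searched for a single library far from the others, and 12 were found. Chance gives about 1 in 20 for normally spread values. A gene read in 1 library of a week, as Npvf at 20 and 32 weeks, is flagged whatever its level. The library of replicate 4 at 20 weeks was the lowest of its week for Cartpt (14.8 CPM, week median 180 CPM), Sst (7.39 CPM, median 134 CPM) and Trh (0 CPM, median 199 CPM). The library of replicate 3 at 16 weeks was the lowest for Penk (0 CPM, median 174.96 CPM) and Sst (0 CPM, median 130 CPM). In that library 1 count amounted to 35.2 CPM, so the medians correspond to few counts at its depth. Npvf had 1 high library in each of 4 weeks: 30.1 CPM in replicate 2 at 12 weeks, 19.1 CPM in replicate 6 at 20 weeks, 71.1 CPM in replicate 2 at 28 weeks and 6.88 CPM in replicate 2 at 32 weeks, each against a week median of 0. Klf9 was at 0 CPM in replicate 6 at 28 weeks (median 19.3 CPM), and Thra was lowest in replicate 4 at 12 weeks (16.2 CPM, median 87.6 CPM). The most abundant gene took 12.5% of the counts of replicate 5 at 12 weeks, against a median of 2.90%.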

How the results depend on the processing

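No gene was called between late and mid PVN under any of 26 alternatives (the lowest adjusted p was 0.562), with 169 (edgeR's filterByExpr) to 878 (no filter) genes at an unadjusted p below 0.05, 406 with the edgeR 4 form and at most 393 without 1 replicate. The counts without the libraries of replicate 3 at 16 weeks and replicate 4 at 20 weeks, both chosen after seeing the data, were 323 and 319. The labels tie replicate numbers to no shared animal or batch, so libraries were not treated as paired. Same-numbered libraries were on average more alike than others. For the same number r was -0.29 to 0.62 (mean 0.07, 67 of 200 pairs above 0.1), with a mean of 0.22 within replicate 1. For different numbers r was -0.01 on average (154 of 1001). Of 52 libraries, 27 correlated best with their own of the 6 numbers. This comes from the data and not the design, and what the numbers share was not tested. With a replicate block 0 genes were called, and an unadjusted p below 0.05 was found for 328. For the PVN minus MBH, 1 gene, Rnf103, was called with the replicate block (adjusted p = 0.0737 in limma) and with each hamster centred, an alternative added after seeing the data, and 0 to 1 genes without 1 replicate. The cause was not tested. The PVN minus DMH count stayed at 0 under 10 alternatives. With the shallow library kept, the late minus mid difference in log2 depth was 0.26 (permutation p = 0.685) and that in the share of the most abundant gene was -0.39 percentage points, against 0.35 without it. Without replicate 3 at 16 weeks the difference in genes detected was -330, against 117 with it. For the 43 named genes 70 of 1026 values changed sign, and for 10 gene lists 23 of 250 medians did (PVN peptides 7, oxidative phosphorylation 9, astrocytes 5, microglia 1, pan-neuronal 1). Depth limits the comparison most for genes under 5 counts per library, and the summing of equal isoforms inflates counts of genes with many isoforms.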

Other observations

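Further genes had small p-values in single cases, and none had an adjusted p below 0.1. Kcnk9, a two-pore potassium channel, had 78 counts in 7 late and 67 counts in 8 mid libraries, with a log2 difference of 1.96 (interval 0.27 to 3.65), and it was the 1 gene of 16 tested potassium channels with an unadjusted p below 0.05. Rgs16, a regulator of G protein signalling, had a median of 22.9 CPM in late and 10.7 CPM in mid libraries (log2 difference 0.99, interval 0.03 to 1.95). It belongs to the list of neighbouring nuclei described above. Of the 9 genes tested in that list, it was the 1 with an unadjusted p below 0.05 in edgeR's test. Of 13 clock genes, 5 had positive and 8 negative differences, and Npas2 was read in 2 late and 10 mid libraries. Of 9 glucocorticoid receptors and responsive genes, 3 were positive and 6 negative (median -0.12).

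Tshb, the beta subunit of thyrotropin, a hormone of the pituitary gland and pars tuberalis, had 26 counts in 4 late and 98 counts in 10 mid PVN libraries, a log2 difference of -1.85 (interval -3.60 to -0.09). In the MBH of the same hamsters the late minus mid difference was 3.37, and the test of the difference between both regions gave -2.75 (interval -4.18 to -1.32) with a limma adjusted p of 1.00.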
